A study of Mus musculus with 2 samples.

Results

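Withdrawal of beta-estradiol was followed in 63.3 cells, a mouse acute myeloid leukemia (AML) line, and the results here describe its step between 6 and 12 h. The members are cells whose sample barcode the authors' deposited annotation assigned to the 12 h or the 6 h withdrawal culture, with doublet and negative calls left out. They number 2481 of the 12540 assigned cells of the series, 1229 in the 12 h culture and 1252 in the 6 h culture.

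In the 12 h culture, cells had been washed free of beta-estradiol and kept for 12 h in medium that lacked it. The 6 h culture was treated in the same way for 6 h. Both came from cells grown in RPMI with dialyzed fetal bovine serum, 0.5 µM beta-estradiol and stem cell factor from conditioned medium of a hamster cell line. The labels name no transgene and do not say whether the withdrawal medium kept the stem cell factor. No culture kept in estradiol was collected at 12 or 6 h, so time without estradiol, time since washing and time in culture cannot be told apart. The withdrawal cultures at 0, 24 and 48 h give levels around the step. A pair of cultures of the same line given 2 µM brequinar for 12 h and for 6 h, with no change of medium named in the labels, forms the matched step of the other treatment. Brequinar blocks pyrimidine synthesis at the enzyme dihydroorotate dehydrogenase.

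Myeloid progenitors mature under transcription factors such as PU.1 (gene Spi1) and the C/EBP family, and granule proteins are made in an order in which primary granule enzymes come before the proteins of secondary granules and of the cytosol of neutrophils. Cells short of amino acids or under other stress make the factor ATF4, which switches on amino acid synthesis, amino acid transport and tRNA charging. Blocked translation also stabilises the spliced transcripts of genes that host small nucleolar RNAs, which are normally degraded as they are translated.

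Spliced transcripts were counted as unique molecular identifiers (UMIs), summed over the cells of a culture and given as counts per 1000000 (CPM). Levels can therefore be compared between cultures for 1 gene, and not between genes. The sums were 10853718 UMIs at 12 h and 12088111 at 6 h, with medians of 9535 and 10695 UMIs per cell. Cells with fewer than 2000 UMIs made up 13.5% at 12 h and 9.82% at 6 h. Those with at least 10% mitochondrial UMIs made up 22.7% and 22.2%, so this sign of RNA quality differed little. Each culture was grown once and the 2 runs were loaded from 1 pool, so there is no replicate and no test was run. Ratios carry exact 95% intervals, and shares of cells carry exact 95% Clopper-Pearson intervals. Both cover counting error only. The 0 h cultures of the 2 treatments, which are separate cultures of the line, differed with an SD of 0.06 in log2 ratio over 5490 genes.

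The cells carried markers of early myeloid cells at both times. Kit, the stem cell factor receptor, stood at 84.4 CPM at 12 h and 49.6 CPM at 6 h, and Mpo, the peroxidase of primary granules, at 1138 and 1019 CPM. Several defining transcripts of other lineages were at or near 0, while other members of the same lists were measured. The B lineage and lymphoid list summed to 175 CPM at 12 h and 210 CPM at 6 h, with 3 of 23 members measured, and the erythroid list to 147 and 173 CPM, with 2 of 14 measured. The hemoglobin genes Hba-a1 and Hbb-bs had 1 UMI each at 12 h, against 1 and 2 UMIs at 6 h. No UMI of Cd3e, H2-Aa, Siglech or Fcer1a was counted at either time. Itgam, the CD11b chain of mature myeloid cells, had 9 UMIs at 12 h and 0 at 6 h, and a count of 0 allows up to 0.248 CPM. The macrophage receptor Csf1r had 7.28 CPM at 12 h and 1.16 CPM at 6 h.

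Of 5891 genes with at least 20 CPM in either culture, 233 were at least 1.5-fold higher at 12 h than at 6 h (3.96%) and 254 were at least 1.5-fold lower (4.31%). Of the higher genes, 163 had at least 20 CPM in both cultures, and of the lower genes also 163. The rest passed this limit only through the culture where they were higher, and such genes enter the counts of list members too. At 2-fold, 71 genes were higher (1.21%) and 46 lower (0.781%). The median log2 ratio over all measured genes was -0.04, with an SD of 0.32. By the same 1.5-fold rule, the withdrawal 0 h culture had 3 genes higher than the brequinar 0 h culture (0.0546%) and 0 lower. The 233 higher genes summed to 49393 CPM at 12 h and 26103 CPM at 6 h. The 254 lower genes summed to 20279 CPM at 12 h and 34976 CPM at 6 h.

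**Figure D1:**
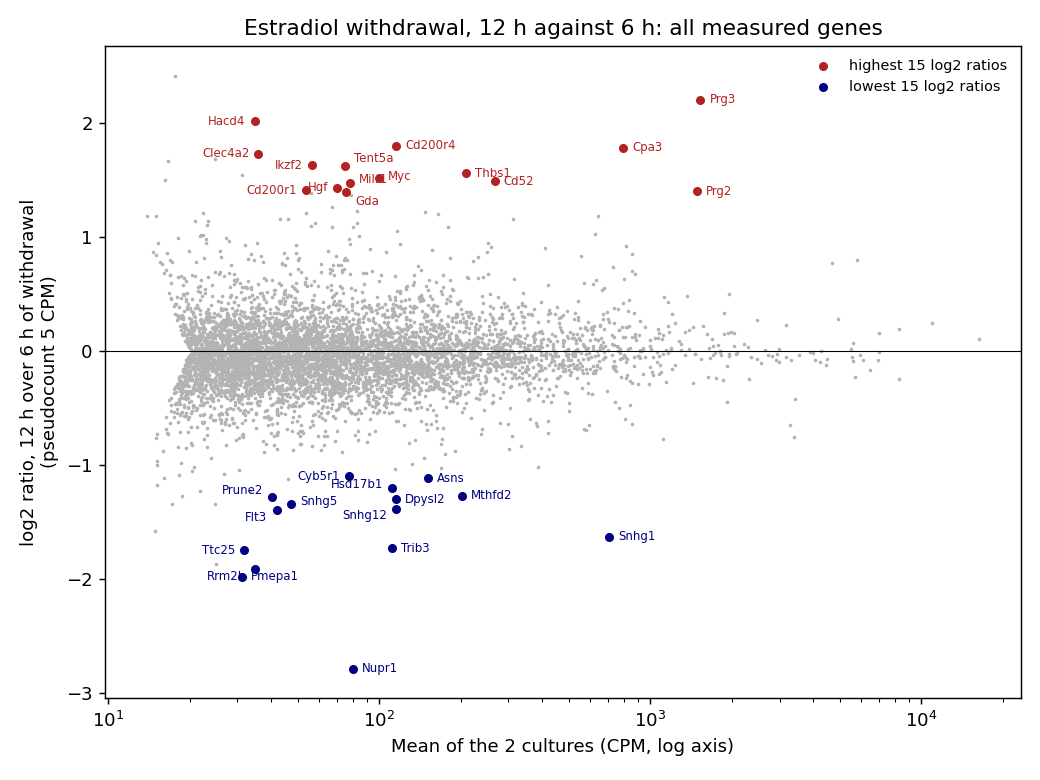
Log2 ratio of the 12 h over the 6 h withdrawal culture (y axis, pseudocount 5 CPM) against the mean level of both cultures (x axis, CPM, log axis) for the 5891 measured genes, 1 point per gene. The 15 highest and 15 lowest log2 ratios among genes with at least 50 CPM in either culture are coloured and named, and Prg3, Cpa3 and Prg2 combine a high ratio with a high level.

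Many measured genes of the ATF4 and amino acid response were lower at 12 h. Of 21 measured members, 12 were at least 1.5-fold lower and 0 higher, with a median log2 ratio of -0.66. Nupr1, a small stress-induced chromatin protein, had 16.5 CPM at 12 h and 143 CPM at 6 h, 8.70-fold lower (7.45 to 10.2), and was the lowest of all named genes. Trib3, a pseudokinase that restrains ATF4 signalling, had 49.1 and 175 CPM, 3.56-fold lower (3.24 to 3.92). Mthfd2, a folate enzyme of mitochondria, had 117 CPM at 12 h and 288 CPM at 6 h. Asns, asparagine synthetase, had 94.0 CPM at 12 h and 210 CPM at 6 h, 2.23-fold lower (2.07 to 2.40). The transcript of Atf4 itself was among the lower genes, at 213 CPM at 12 h against 392 CPM at 6 h. Ddit3, which encodes the stress factor CHOP, stood at 441 CPM at 12 h and 714 CPM at 6 h. Slc1a5, a glutamine carrier, was the only measured member with a log2 ratio above 0, at 40.2 CPM at 12 h and 34.9 CPM at 6 h.

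Enzymes that charge tRNAs in the cytosol form the second group with this direction. Of 20 measured, 9 were at least 1.5-fold lower at 12 h and 0 higher, with a median log2 ratio of -0.54. Cars, which charges tRNAs with cysteine, had 24.9 CPM at 12 h and 50.3 CPM at 6 h, 2.02-fold lower (1.75 to 2.34). Gars, the glycine enzyme, had 120 and 229 CPM. Farsa, a subunit of the phenylalanine enzyme, had 139 CPM at 12 h and 106 CPM at 6 h, so the list did not move as a block. In the endoplasmic reticulum list, 2 of 21 measured genes were lower and 0 higher, with a median log2 ratio of 0.07. Herpud1, which serves protein degradation there, had 92.6 CPM at 12 h and 166 CPM at 6 h, and Ero1l, an oxidase of protein folding, had 460 and 724 CPM.

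Short stretches of the promoters of these genes are shown because a known composite element for ATF4 and C/EBP factors, searched as the letters TGATGNAA on both strands, occurs in several of them. Promoters run from 250 bases before to 50 bases after the annotated start, taken from RefSeq (GRCm38.p6). The capitals mark the matched letters, read 5′ to 3′ on the strand of the gene, so a match on the other strand appears as TTNCATCA.
Asns: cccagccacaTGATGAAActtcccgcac
Got1: attgcattggTTGCATCAtacaagcctc
Nupr1: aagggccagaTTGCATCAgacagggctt
Trib3: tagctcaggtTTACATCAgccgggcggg
Gars: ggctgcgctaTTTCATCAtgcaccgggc
Iars: actgtcagtaTTGCATCAcctccagacg
Tars: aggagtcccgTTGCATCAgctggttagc
Yars: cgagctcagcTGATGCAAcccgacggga

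The matches lie at chr6:7693215-7693242 (minus strand, Asns), chr19:43524690-43524717 (minus, Got1), chr7:126625563-126625590 (minus, Nupr1), chr2:152344029-152344056 (minus, Trib3), chr6:55037961-55037988 (plus, Gars), chr13:49682127-49682154 (plus, Iars), chr15:11399656-11399683 (minus, Tars) and chr4:129189896-129189923 (plus, Yars). They sit between 110 bases before and 15 bases after the start. Among the lower genes, 4 of the 11 ATF4 list members with a promoter held the letters (36.4%), and 4 of 6 tRNA synthetase genes (66.7%). Both lists cover functions that ATF4 switches on, so the element may be common in them whatever their direction. No share was taken for list members that were not lower. All lower genes with a promoter held the letters in 16 of 203 cases (7.88%), and these 16 include the 8 genes shown. All higher genes held them in 4 of 174 (2.30%). Over the measured genes the share was 2.75%, and over all 27021 promoters it was 4.51%. The letters GAGGAAGT, bound by PU.1, occurred in 9 of 174 higher genes (5.17%), in 4 of 203 lower genes (1.97%) and in 3.73% of the measured genes. The C/EBP letters TTGCNNAA occurred in 20 of 174 higher genes (11.5%), in 17 of 203 lower genes (8.37%) and in 9.48% of the measured genes. The GATA letters AGATAA occurred in 17 of 174 higher genes (9.77%), in 14 of 203 lower genes (6.90%) and in 6.62% of the measured genes. The E-box letters CACGTG occurred in 15 higher genes (8.62%), in 23 lower genes (11.3%) and in 13.1% of the measured genes. All 5 motifs were searched on both strands. They were chosen after the gene values were known, and a match is a run of letters, not a bound site.

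Some noncoding hosts of small nucleolar RNAs were lower as well. Of 12 measured genes in this list of host genes and nuclear noncoding RNAs, 4 were at least 1.5-fold lower at 12 h and 0 higher, with a median log2 ratio of -0.46. Snhg1 had 342 CPM at 12 h and 1068 CPM at 6 h, 3.12-fold lower (3.01 to 3.24). Snhg5 had 24.6 and 69.9 CPM, and Snhg12 had 61.7 and 169 CPM. Zfas1 had 239 CPM at 12 h and 430 CPM at 6 h. It lies antisense to another gene, and whether the counting used strand is not stated in the labels. Malat1, a nuclear RNA that hosts no small nucleolar RNA, had 3416 CPM at 12 h and 2906 CPM at 6 h, the one log2 ratio above 0 in the list.

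The 6 h levels of these genes stood above those of the 0 h culture. Over 0, 6, 12, 24 and 48 h, Nupr1 had 8.75, 143, 16.5, 5.01 and 11.4 CPM. Trib3 had 25.4, 175, 49.1, 30.5 and 13.7 CPM. Snhg1 had 443, 1068, 342, 458 and 247 CPM. Each stood highest at 6 h, as did the summed ATF4 list, at 3418, 5218, 3124, 2998 and 2460 CPM. Of the p53 target list, 3 of 9 measured members were at least 1.5-fold lower at 12 h and 0 higher. Rrm2b, a ribonucleotide reductase subunit, had 11.7 CPM at 12 h and 58.1 CPM at 6 h, with 11.3 CPM at 0 h. Gdf15, a stress cytokine, had 11.8 and 37.6 CPM, and Bbc3, a trigger of apoptosis, 26.0 and 48.5 CPM. The p53 targets Cdkn1a and Mdm2 stayed within 1.5-fold, with 30.4 and 40.4 CPM at 12 h against 24.1 and 45.3 CPM at 6 h.

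**Figure D2:**
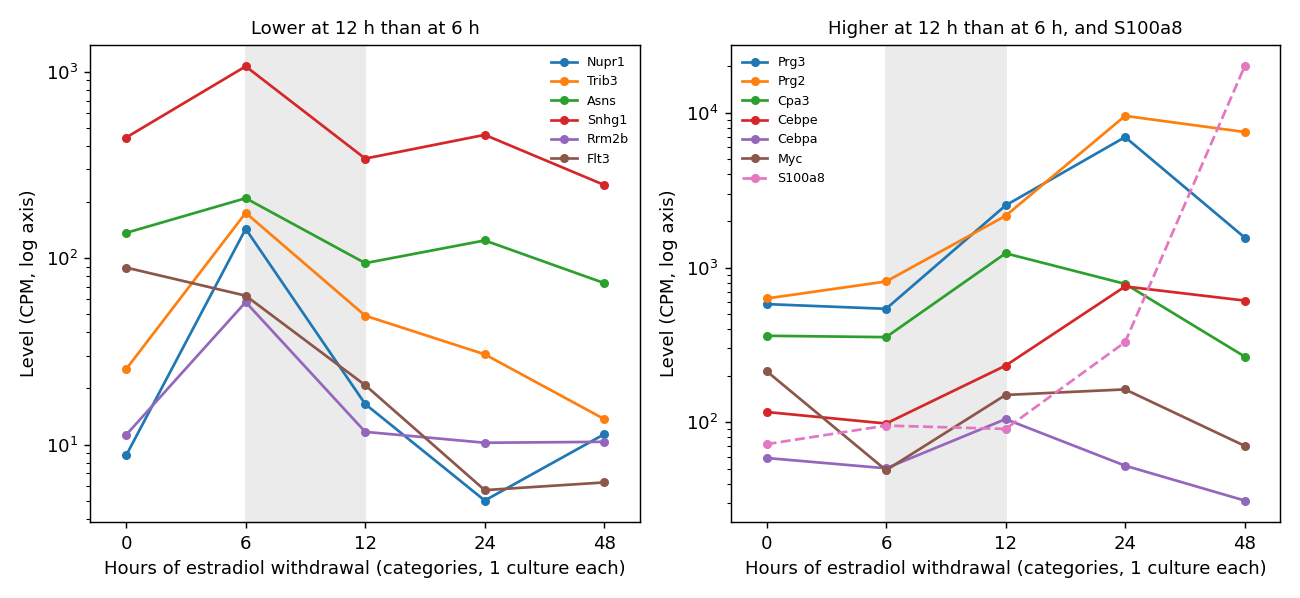
Levels (y axis, CPM, log axis) of named genes over 0, 6, 12, 24 and 48 h of estradiol withdrawal (x axis, evenly spaced categories, 1 culture per point), with the step from 6 to 12 h shaded. In the left panel Nupr1, Trib3, Asns, Snhg1 and Rrm2b stand highest at 6 h, and in the right panel Prg3, Prg2 and Cpa3 are higher at 12 h than at 6 h while S100a8 is high only at 48 h.

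Several genes named for eosinophils, mast cells and basophils were higher at 12 h, and Prg3, Cpa3 and Prg2 were among the 15 highest log2 ratios. Prg3, which encodes a basic protein of eosinophil granules, had 2520 CPM at 12 h and 541 CPM at 6 h, 4.66-fold higher (4.53 to 4.79). Its neighbour and paralog Prg2, the major basic protein, had 2159 and 813 CPM, 2.66-fold higher (2.60 to 2.72), and 1.67-fold higher without the 2% of cells of each culture richest in it. Siglecf, a surface lectin of eosinophils, had 38.1 CPM at 12 h and 16.6 CPM at 6 h. These were the 3 measured members of the 12 in the eosinophil list. All 3 were at least 1.5-fold higher, with a median log2 ratio of 1.40, or 0.99 without those cells. The receptor chain Il5ra stayed under the limit for measured genes, at 16.8 CPM at 12 h and 4.05 CPM at 6 h. Epx, the eosinophil peroxidase, was near 0 at both times, with 19 UMIs at 12 h and 16 at 6 h, and Ear1 and Ear2 had none. Cpa3, the carboxypeptidase of mast cell granules, had 1236 CPM at 12 h and 355 CPM at 6 h, 3.48-fold higher (3.36 to 3.60). Of 6 measured mast cell and basophil genes it was 1 of 2 called, beside Hdc, the histamine-forming enzyme, with 21.0 and 10.1 CPM. Mcpt8, a basophil protease, had 32.2 CPM at 12 h and 36.2 CPM at 6 h, and Ms4a2, a chain of the IgE receptor, had 35 and 25 UMIs. The called transcripts of these lists were thus Prg3, Prg2, Siglecf, Cpa3 and Hdc. Il5ra was also higher, at low levels. Mcpt8 was not higher, and Epx, Ear1 and Ear2 were near or at 0 at both times.

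Other genes among the 15 highest serve varied functions. Hacd4, an enzyme of fatty acid elongation, had 58.8 CPM at 12 h and 10.8 CPM at 6 h, 5.47-fold higher (4.52 to 6.65). Cd200r4 and Cd200r1, paralogs among receptors that temper myeloid cells, had 183 and 80.2 CPM at 12 h against 48.8 and 27.1 CPM at 6 h. Cd200r3, another paralog, had 361 UMIs at 12 h and 26 at 6 h, and is named here after its values were seen. Clec4a2, a lectin receptor with close paralogs, had 57.9 and 13.9 CPM. How the counting divided reads between paralogs is not known from the labels. Thbs1, the secreted thrombospondin, had 314 CPM at 12 h and 103 CPM at 6 h. Cd52, a small surface glycoprotein, had 396 and 137 CPM, and Milr1, an inhibitory receptor of mast cells, had 117 and 39.0 CPM. Hgf, a growth factor, had 104 CPM at 12 h and 35.5 CPM at 6 h. Tent5a, a poly(A) polymerase, had 116 and 34.0 CPM.

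Among factors of myeloid maturation, 8 of 16 measured were at least 1.5-fold higher at 12 h and 0 lower, with a median log2 ratio of 0.51. Cebpe, required in late granulocytes, had 232 CPM at 12 h and 98.1 CPM at 6 h, 2.37-fold higher (2.21 to 2.54). Cebpa, which acts earlier, had 105 and 50.4 CPM, 2.08-fold higher (1.88 to 2.30). Spi1 had 383 CPM at 12 h and 246 CPM at 6 h, 1.56-fold higher (1.49 to 1.64). Id1 and Fos were also called, with 104 and 78.0 CPM at 12 h against 52.1 and 43.8 CPM at 6 h. Id1 is named as an inhibitor of differentiation, so the list does not hold only factors that promote maturation. Gfi1, a repressor of granulocyte precursors, had 50.0 and 35.5 CPM and stayed under the 1.5-fold limit. Irf8, a factor of monocytes, was near 0, with 8 UMIs at 12 h and 4 at 6 h. Cebpb, also a member of the ATF4 list, had 424 CPM at 12 h and 582 CPM at 6 h. The list over all its members is less one-sided than its measured part: with every gene of at least 3 UMIs included, the median log2 ratio was 0.04.

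Some receptors for cytokines and genes of phagocytes were higher as well. Of 11 measured chemokine and cytokine receptor genes, 5 were at least 1.5-fold higher and 0 lower. The 2 chains of the GM-CSF receptor, Csf2rb and Csf2ra, had 115 and 90.2 CPM at 12 h against 41.5 and 51.3 CPM at 6 h. The chemokine receptor Ccr1 had 28.0 CPM at 12 h and 5.38 CPM at 6 h, 5.21-fold higher (3.97 to 6.92). Of 16 measured phagocyte genes, 5 were higher and 0 lower, with a median log2 ratio of 0.38. Itgb2, the shared beta chain of leukocyte integrins, had 35.0 and 16.7 CPM. The adaptor Tyrobp had 1079 CPM at 12 h and 673 CPM at 6 h, and the Fc receptor Fcgr3 had 284 and 180 CPM. Of 23 measured lysosome genes, 3 were higher and 0 lower, with 21 log2 ratios above 0 and a median of 0.28.

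The classical neutrophil genes did not share one direction. Of 13 measured, 4 were at least 1.5-fold higher and 1 lower, with a median log2 ratio of 0.08. The highest log2 ratio in this list was that of Cebpe, also counted above among the factors of myeloid maturation. Hp, haptoglobin, had 111 CPM at 12 h and 49.1 CPM at 6 h, and Mgst1, a glutathione transferase, had 38.7 and 17.4 CPM. The calprotectin genes S100a8 and S100a9 had 90.5 and 78.8 CPM at 12 h against 95.1 and 81.7 CPM at 6 h. Ngp, a secondary granule protein, had 10.9 CPM at 12 h and 26.3 CPM at 6 h, 2.42-fold lower (1.95 to 3.02). S100a8 stood at 330 CPM at 24 h and 19980 CPM at 48 h. The primary granule list summed to 10002 CPM at 12 h and 10433 CPM at 6 h. Its highest log2 ratio was that of Hdc, also counted above with the mast cell and basophil genes. Among its 12 measured genes, 3 were higher and 1 lower. The lower one was Ctsg, cathepsin G, with 2558 CPM at 12 h and 4018 CPM at 6 h, while Mpo had 1138 and 1019 CPM and Elane, neutrophil elastase, 29.9 and 28.5 CPM. In the free RNA of the pooled cells, read from droplets with no more than 100 UMIs, S100a8 stood at 1263 CPM, S100a9 at 1186 CPM, Prg2 at 3139 CPM and Prg3 at 1760 CPM. Its share in the levels given here was not tested, and results with 5% of each sum removed in its profile stand among the alternatives.

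**Figure D3:**
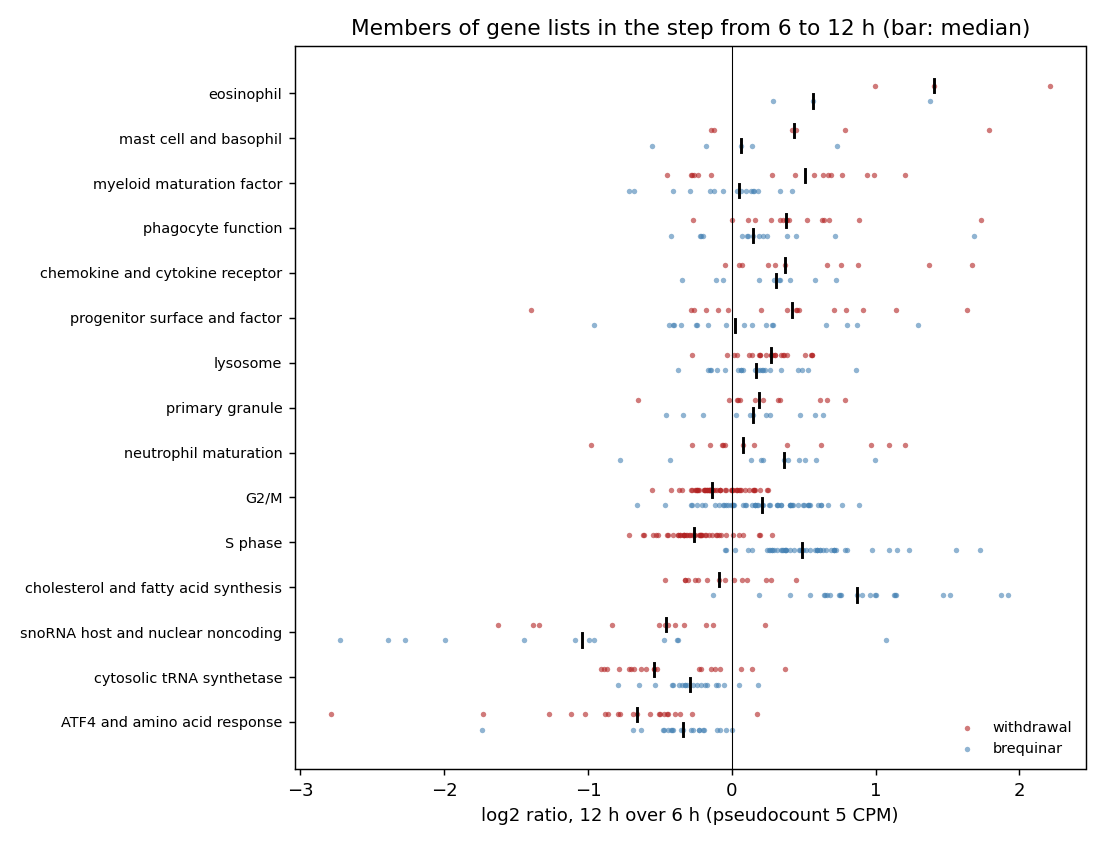
Log2 ratios of 12 h over 6 h (x axis, pseudocount 5 CPM) of the measured members of 15 gene lists (y axis), with withdrawal above and brequinar under it for each list, 1 point per gene and a bar at the median. The eosinophil median stands at 1.40 and the ATF4 median at -0.66 in withdrawal, and the S phase list lies on opposite sides of 0 in the 2 treatments.

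Genes of the progenitor state were more often higher than lower in this step, without sharing 1 direction. Of 16 measured, 5 were at least 1.5-fold higher at 12 h and 1 lower. The median log2 ratio was 0.42, with 10 ratios above 0 and 6 below. Ikzf2, which encodes the factor Helios, had 87.8 CPM at 12 h and 24.9 CPM at 6 h, 3.53-fold higher (3.09 to 4.03). Angpt1, a ligand made by stem cells, had 30.8 and 11.3 CPM, Myb, a factor of immature cells, 339 and 178 CPM, and Runx1 95.2 and 52.7 CPM. Flt3, the receptor of early progenitors, was the lower one, with 20.8 CPM at 12 h and 62.9 CPM at 6 h, 3.02-fold lower (2.60 to 3.52). Hoxa9 and Meis1, a leukemia-associated pair of homeobox genes, had 119 and 28.5 CPM at 12 h against 128 and 32.9 CPM at 6 h, and their intervals included no difference. Cd34 had 211 CPM at 12 h and 258 CPM at 6 h. In the early B lineage and lymphoid list, 3 of 23 genes were measured and 2 were lower. Ebf1, the factor that specifies B cells, had 426, 36.9, 24.2, 12.6 and 17.8 CPM over 0, 6, 12, 24 and 48 h, so the larger part of its difference from 0 h lay before 6 h. Its ratio of 12 h over 6 h was 1.52-fold lower (1.30 to 1.78), and 1.47-fold lower with median-ratio scaling and 1.45-fold lower with all cells weighted equally, both under the limit.

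Myc, a transcription factor of growth and ribosome genes, was higher at 12 h and closer to its 0 h level. It had 150 CPM at 12 h and 49.0 CPM at 6 h, 3.06-fold higher (2.79 to 3.37), and 214 CPM at 0 h. Genes of ribosome assembly stayed close to their 6 h levels. Of 37 measured, 0 were called in either direction, and the median log2 ratio was -0.06. Gnl3, a nucleolar GTPase, came nearest, with 150 and 101 CPM. Ribosomal protein genes were also within 1.5-fold in all 38 measured cases, with a median of -0.05. Hspa8, the constitutive heat shock chaperone, had 205 CPM at 12 h and 108 CPM at 6 h, and was the 1 called of 20 measured heat shock genes. In the immediate early list, Dusp5, a phosphatase of ERK, had 48.7 and 13.4 CPM, and Dusp2, another MAP kinase phosphatase, had 73.4 CPM at 12 h and 155 CPM at 6 h, so these related phosphatases stood in opposite directions. Esr1, the estrogen receptor, had 9.58 CPM at 12 h and 6.78 CPM at 6 h, and Cited2, an estrogen-regulated coactivator, 158 and 73.9 CPM.

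The cells with Prg3 and Cpa3 were many, while those with most of the Prg2 were few. For this, cells were thinned to 2500 UMIs each, which left 999 cells at 12 h and 1056 at 6 h, with 230 and 196 shallower cells left out. Prg3 averaged 6.28 UMIs per thinned cell at 12 h and 1.31 at 6 h. At least 5 UMIs of it were found in 33.7% of cells at 12 h (30.8% to 36.8%) and in 4.45% at 6 h (3.29% to 5.87%). Cpa3 averaged 3.21 UMIs at 12 h and 0.862 at 6 h, with 23.2% and 3.31% of cells at 5 or more. Both gains thus reached a large share of cells, though unevenly. At 12 h, the 100 cells richest in Prg3 held 54.8% of its UMIs, and the 100 richest in Cpa3 held 43.2%. At 6 h, the 106 richest held 69.3% and 55.5%. Prg2 averaged 5.47 and 2.13 UMIs, with only 4.50% of cells at 12 h and 1.99% at 6 h at 5 or more. At least 1 Prg2 UMI was found in 43.6% of thinned cells at 12 h and 43.3% at 6 h. Before thinning, at least 1 was found in 84.1% and 84.3%. No cell class known to lack the gene was at hand, so these low counts cannot be told apart from free RNA. The 100 cells richest in Prg2 held 92.2% of its UMIs at 12 h, and the 106 richest held 82.7% at 6 h. Without the 2% of cells of each culture richest in Prg2, an alternative added after the data were seen, Prg2 had 362 CPM at 12 h and 217 CPM at 6 h, 1.67-fold higher, while Prg3 had 2114 and 340 CPM, 6.22-fold higher.

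**Figure D4:**
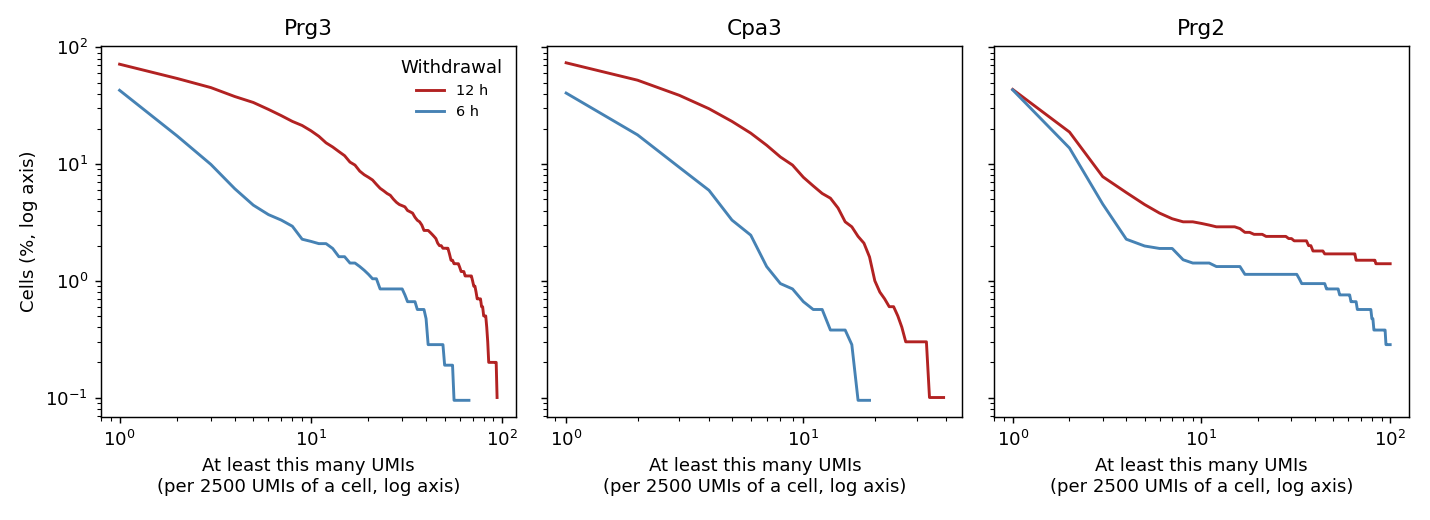
Percent of cells (y axis, log axis) with at least a given number of UMIs (x axis, log axis) of Prg3, Cpa3 and Prg2 after thinning each cell to 2500 UMIs, for 999 cells at 12 h and 1056 cells at 6 h of withdrawal. The Prg3 and Cpa3 curves part at every number of UMIs, while the Prg2 curves begin together at 1 UMI and end in a thin tail of rich cells.

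Cells with many Prg3 UMIs also held most of the Prg2. At 12 h, the 337 cells with at least 5 Prg3 UMIs averaged 15.0 Prg2 UMIs and 3.84 Cpa3 UMIs. The other 662 cells averaged 0.607 Prg2 UMIs and 2.89 Cpa3 UMIs. Only 45 of all 999 cells at 12 h had at least 5 Prg2 UMIs, so the mean of 15.0 rests on few of the 337 cells. At 6 h, Prg2 averaged 35.4 UMIs in the 47 cells with at least 5 Prg3 UMIs and 0.578 in the other 1009, while Cpa3 averaged 2.66 and 0.778. Spearman's rho across cells of 1 library was 0.22 for Prg2 and Prg3 and 0.09 for Prg3 and Cpa3 at 12 h, with 0.11 and 0.08 at 6 h, values that describe sparse counts from cells of equal depth. Msrb1, a methionine sulfoxide reductase, had at least 1 UMI in 87.2% of thinned cells at 12 h and 67.2% at 6 h, and Pim1, a survival kinase, in 76.7% and 50.7%. On the low side, Snhg1 was found in 52.4% of thinned cells at 12 h and 79.8% at 6 h, Asns in 20.2% and 39.2%, and Nupr1 in 3.80% and 26.5%. Msrb1 and Pim1 were named after their values were seen.

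Few cell cycle genes passed the 1.5-fold limit, and a smaller share of cells was scored in S phase at 12 h. Of 45 measured S phase genes, 4 were at least 1.5-fold lower and 0 higher, with a median log2 ratio of -0.26, beside 4.31% lower and a median of -0.04 over all measured genes. Cdc45, a part of the replicative helicase, had 30.5 CPM at 12 h and 53.4 CPM at 6 h. With 12 h cells weighted to the cell cycle shares of 6 h, the median of the list was -0.08, though scores on the same list set those shares. Pcna, the sliding clamp, had 69.3 CPM at 12 h and 74.1 CPM at 6 h. Of 55 measured G2/M genes, 1 was lower and 0 higher, and Mki67 had 162 and 145 CPM. By scores on these lists, 26.7% of thinned cells at 12 h (24.0% to 29.6%) and 37.9% at 6 h (34.9% to 40.9%) were in the S class. The G2/M class held 41.6% and 43.3%. The G1-like class, in which neither score exceeded 0, held 31.6% at 12 h (28.8% to 34.6%) and 18.8% at 6 h (16.5% to 21.3%). Cells of 3 other cultures were also scored along with them, an alternative added after the data were seen. The S class then held 19.7% and 24.1%, the G2/M class 42.7% and 48.5% and the G1-like class 37.5% and 27.4%. The size of the S difference thus depends on which cells are scored together, and the G2/M difference was then larger than the S difference. Classes are ranges of a score, and free RNA enters them too.

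Within the classes, most of the extreme genes kept their side. These genes were chosen from sums over the same cells, so most were likely to keep their side, and the counts are a description only. All 15 of the lowest genes were at least 1.5-fold lower at 12 h in each of the 3 classes, and 14 of the 15 highest were at least 1.5-fold higher in each. The exception was Prg2. In the S class it had 534 CPM at 12 h and 673 CPM at 6 h, in the G2/M class 1879 and 613 CPM, and in the G1-like class 4117 and 1684 CPM. Prg3 had 2447 CPM at 12 h and 387 CPM at 6 h in the S class, 2218 and 631 CPM in the G2/M class, and 3247 and 623 CPM in the G1-like class. Of the ATF4 list, 13, 12 and 16 of 21 measured members were lower in the S, G2/M and G1-like classes. Over all measured genes, 325 of 5929, 285 of 5872 and 541 of 5825 were lower in these classes, and 274, 238 and 431 were higher. The S phase list is not given within the classes, since its own scores set them. The neutrophil list split, with a median of 0.78 within the S class, 0.42 within the G2/M class and -0.61 within the G1-like class. Its calls were 7 higher and 0 lower of 13 in the S class and 5 higher and 1 lower of 12 in the G2/M class. In the G1-like class, 3 were higher and 7 lower of 13.

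The brequinar cultures were grown apart from the withdrawal cultures and sampled at the same times, so their step shares no culture with this one. Of 6033 measured genes, 410 were at least 1.5-fold higher at 12 h of brequinar than at 6 h (6.8%) and 203 lower (3.36%). At 2-fold, 97 were higher (1.61%) and 40 lower (0.663%). Across the 5701 genes measured in both steps, log2 ratios had a Pearson r of 0.30 and a Spearman rho of 0.22, as a description over genes, which are not independent. Of 178 genes higher in the withdrawal step, 46 were also higher with brequinar (25.8%), against 5.39% of all genes measured in both. Another 4 were lower with brequinar (2.25%), against 3.44%. Of 241 genes lower in the withdrawal step, 54 were lower with brequinar (22.4%), against 3.44%. Another 17 were higher with brequinar (7.05%), against 5.39%. Counted from brequinar, 15.0% of its higher genes and 27.6% of its lower genes had the same call in withdrawal. Over all 5701 genes, 178 were higher and 241 lower in withdrawal.

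Medians of the noncoding and ATF4 lists were under 0 in both steps. With brequinar, 8 of 12 measured genes of the noncoding list were lower, with a median log2 ratio of -1.04. Snhg1 had 291 CPM at 12 h and 1954 CPM at 6 h of brequinar, 6.71-fold lower. The ATF4 list had a median of -0.34 with brequinar, with 3 of 21 lower, and Nupr1 had 47.0 and 169 CPM. The eosinophil list had a median of 0.57 against 1.40 in withdrawal, and Prg3 had 552 CPM at 12 h and 371 CPM at 6 h of brequinar. The maturation factors had a median of 0.05 with brequinar, with 0 of 16 higher. Cebpe had 65.2 CPM at 12 h and 58.9 CPM at 6 h of brequinar, and Cebpa had 39.0 and 40.9 CPM. S phase genes had a median on the other side of 0, with 21 of 48 higher with brequinar and a median of 0.49. Genes of cholesterol synthesis were higher with brequinar in 20 of 23 cases, with a median of 0.87, against 0 of 15 and a median of -0.09 in withdrawal. The differences between the steps were not tested, since each rests on 1 culture per time.

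**Figure D5:**
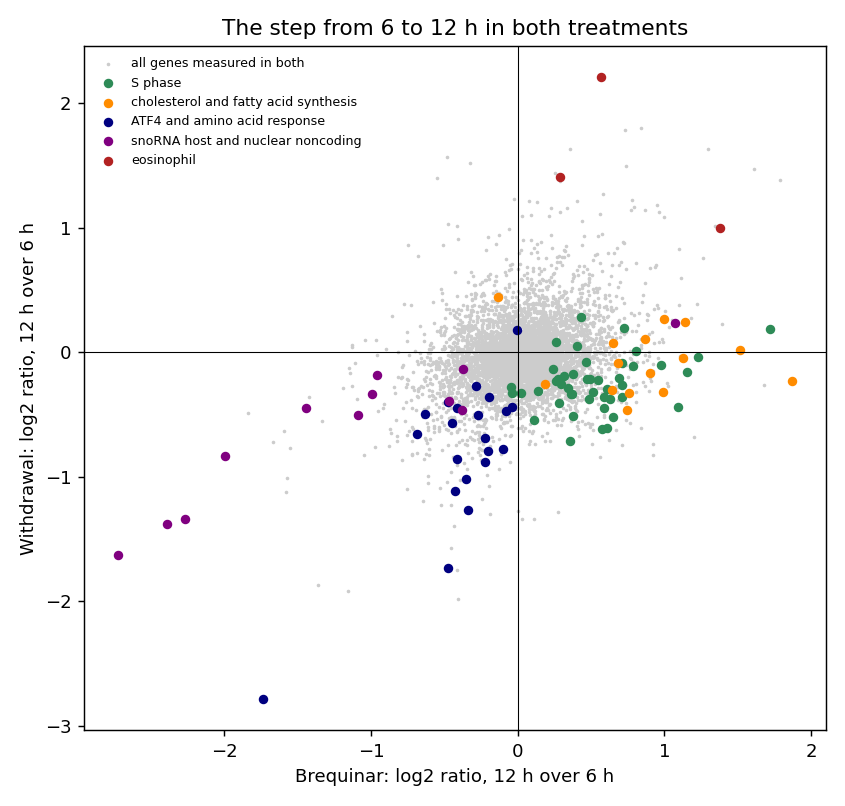
Log2 ratios of 12 h over 6 h (pseudocount 5 CPM) in withdrawal (y axis) and with brequinar (x axis) for the 5701 genes measured in both, 1 point per gene, with members of 5 lists coloured. Members of the noncoding host and ATF4 lists lie mostly at lower left, the S phase list at lower right and the cholesterol genes along the right of the x axis.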

How the data were processed

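The authors deposited 1 unfiltered matrix of spliced UMI counts that holds both runs, an annotation with the sample barcode call of 15582 cell barcodes and a table that gives each sample barcode its treatment and time. Tools named in the submitters' processing notes are Cell Ranger, bustools 0.39.4 and kallisto 0.46. The genome build, the annotation and the strand setting were not given in the sources used here. Symbols were given to 54723 of 54838 gene IDs. Doublet calls (2777, 17.8%) and negative calls (265) were left out, with no other filter and no doublet caller. Since no run is marked on a barcode, those that both runs share could not be counted.

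Counts were summed per culture and scaled to CPM, and intervals are exact conditional binomial (scipy 1.17.1). A floor of 3 counts is 0.276 CPM at 12 h and 0.248 CPM at 6 h. Cells were scored for the cell cycle with scanpy 1.11.5. The 36 gene lists and the members were chosen with earlier results of these data known. Named genes are the 15 highest and 15 lowest log2 ratios at 50 CPM or more, without mitochondrial, ribosomal protein and unnamed genes, up to 4 members per list and direction, and a fixed set of regulators and markers; a few others were named after their values were seen. Some items are not reported here. The ratio step was tested on simulated data. Scaling, cell weighting, filters, cell subsets, cell cycle weighting, free RNA and pseudocount were varied.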

Additional observations from a re-analysis of the deposited data

Results flagged for a closer look

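Gda, guanine deaminase, stood in opposite directions in the steps of both treatments. With withdrawal it had 111 CPM at 12 h and 39.3 CPM at 6 h, a ratio of 2.84 (2.55 to 3.16). With brequinar it had 40.2 CPM at 12 h and 61.3 CPM at 6 h, a ratio of 0.656. The S phase list did the same, with a median log2 ratio of -0.26 over 45 measured genes with withdrawal and of 0.49 over 48 with brequinar. Neither difference between treatments was tested, since each rests on 1 culture per time.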

How the results depend on the processing

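The counts of 233 higher and 254 lower genes stayed within 1.5 times under the other scalings, cell weightings, cell subsets and the removal of free RNA. They were 1682 and 2105 with all 14075 genes of at least 3 counts, 134 and 124 at 50 CPM, and 71 and 46 at 2-fold, each as its limit admits more or fewer genes. The S class difference of 12 h minus 6 h was -11.2 percentage points, and -4.43 when 3 other cultures were scored too. For the G2/M class these differences were -1.63 and -5.74. Checks by gene covered the 15 highest and 15 lowest log2 ratios and the measured genes of the fixed set of regulators and markers. Other list members named in the text were not checked gene by gene under these alternatives. Of 470 log2 values of the checked genes under alternatives that can move them, 400 moved by less than their counting interval. Another 70 moved further and 0 changed sign while called. Of 431 list medians, 24 moved further and 0 of those beyond 0.25 changed sign. Of the 35 checked genes past 1.5-fold, 34 stayed past it under the 8 alternatives that can move a ratio. The filters and pseudocounts leave a ratio as it is. The exception, Ebf1, was 1.47-fold lower with median-ratio scaling and 1.45-fold lower with cells weighted equally. Prg2 was 2.16-fold higher with 12 h cells weighted to the 6 h cell cycle shares, and the S phase median was then -0.08. No paired analysis was possible because each condition is 1 culture. Runs could not be left out in turn, as barcodes carry no mark of the run. With 3 UMIs near 0.25 CPM, depth limits only the rarest transcripts.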

Other observations

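Some lists held few or no calls in this step. Of 26 measured oxidative phosphorylation genes, 0 were at least 1.5-fold higher at 12 h and 1 lower, with a median log2 ratio of -0.07, and of 14 glycolysis genes 1 was higher and 1 lower. Purine synthesis genes were lower in 2 of 22 cases, Mthfd2 and Shmt2, both folate enzymes that also belong to the ATF4 list, while the median was -0.12. The interferon list had 0 of 4 called, histones 0 of 11 and G1 cyclins and CDK inhibitors 0 of 17. Among 13 measured apoptosis genes, Bcl2, which blocks cell death, had 38.0 CPM at 12 h and 23.4 CPM at 6 h.

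Several genes that were low at 12 h are not members of the stress lists. Pmepa1, an inhibitor of TGF-beta signalling, had 9.58 CPM at 12 h and 52.6 CPM at 6 h, 5.49-fold lower (4.46 to 6.82). Over 24 and 48 h it stood at 3.43 and 3.21 CPM. Ttc25, an axonemal protein gene, had 11.9 CPM at 12 h and 51.8 CPM at 6 h. Dpysl2, a protein of the cytoskeleton, had 64.2 and 166 CPM, and Hsd17b1, which converts estrone to estradiol, had 65.8 CPM at 12 h and 157 CPM at 6 h.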
